A study of Caenorhabditis elegans with 6 samples.

Results

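MicroRNAs (miRNAs) miR-42, miR-43 and miR-44 come from neighbouring genes of Caenorhabditis elegans. They were selected by the target name of the array spots, which gave 12 spots of 3 oligos, out of 108 miRNA oligos with 4 spots each. The spots were read on all 6 arrays of a comparison between adults of 2 temperature-sensitive germ line mutants. The fem-2(b245ts) mutant is feminised by loss of function, and its germ line makes oocytes and no sperm at the restrictive temperature. The fem-3(q20ts) mutant is masculinised by gain of function, and its germ line makes sperm and no oocytes. Both were kept at 25 °C and collected 24 hours after the late L4 larval stage, as adults 1 day old. Of the 3 arrays per genotype, 2 were technical arrays of biological replicate 1 and the other was replicate 2, which makes 2 samples a genotype. No wild type was analysed here.

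miRNAs guide Argonaute proteins to messenger RNAs, and the seed at the 5′ end of a miRNA largely decides which messages are bound. Genes that lie side by side are often transcribed together as 1 primary transcript, from which each hairpin is cut separately. The 3 neighbours described here carry seeds of different families. miR-42 shares its seed with miR-35 to miR-41, the family that is abundant in oocytes and embryos and is needed for embryonic development. miR-43 shares its seed with miR-2 and miR-250, and miR-44 with miR-45, miR-61 and miR-247. miR-44 and miR-45 are known to have the same mature sequence, so an oligo for one is also expected to bind the other.

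In the RefSeq gene table of assembly WBcel235, mir-42 (ZK930.8), mir-43 (ZK930.9) and mir-44 (ZK930.10) were consecutive miRNA genes on chromosome II, in that order. The ncRNA entry ZK930.12 overlapped both mir-42 and mir-43, and no other entry lay between mir-42 and mir-44. The nearest miRNA gene on the mir-42 side was mir-45, beyond the lncRNA linc-47, the protein-coding gene ZK930.6, the pseudogene ZK930.5 and the ncRNA entry ZK930.13. On the mir-44 side the snoRNA ZK930.15 and the protein-coding gene ZK930.2 followed. The genes mir-35 to mir-41 are on the same chromosome, with 6 annotated miRNA genes between mir-41 and mir-42.

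The values are linear Cy3 intensities of spots, scaled by the authors to 1 total per array. Of the 108 miRNA oligos, 94 passed a filter on mean signal and were tested, and all 3 oligos described here were among them. The filter required the mean over the 4 biological samples to exceed the 95th percentile of the 32 Buffer spots, an intensity of 37.2 averaged over samples. On single arrays this Buffer level was 127 and 114 on the fem-2(b245ts) arrays of replicate 1 and 21.5 on that of replicate 2, against 36.5, 41.5 and 19.0 on the fem-3(q20ts) arrays in the same order. The high level of the fem-2(b245ts) arrays of replicate 1 came with the first 8 Buffer spots, whose medians were 93.8 and 75.0. The medians of the other 24 there were 21.6 and 10.7. For the masculinised mutant, replicate 1 gave medians of 18.3 and 27.0 for the first 8 and 12.6 and 9.12 for the other 24. In replicate 2 the first 8 had a median of 3.48 in the feminised mutant, against 4.45 in the masculinised one. In replicate 1 these 8 Buffer spots thus differed in the same direction as miR-42 and miR-43 below. Their part in those differences was not tested.

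The 3 oligos were printed side by side in the first row of set A, 1 of the 4 printed sets of the array, and this set differed between the technical arrays of fem-2(b245ts). On the log2 scale the array 1 minus array 2 differences there were 0.52 for miR-42, 0.63 for miR-43 and 0.69 for miR-44. All 20 other tested miRNAs of set A also had positive values, with medians of 0.56 in rows 1 to 6 and 0.51 in rows 7 to 12. In sets B to D the median was -0.13, with 26 of 71 positive. In fem-3(q20ts) the array 1 minus array 2 differences were -0.77 for miR-42, -0.35 for miR-43 and -0.04 for miR-44, and the medians of the other tested miRNAs of set A were -0.16 and -0.18. The differences are therefore also given with only the first or only the second technical arrays of replicate 1. Replicate 2, with 1 array a genotype, is kept in both, so the gap between technical arrays enters these values only in part.

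The question of the comparison was whether the 3 neighbours have other signals where the germ line makes oocytes than where it makes sperm. miR-42 and miR-43 had higher mean signal in fem-2(b245ts) than in fem-3(q20ts), by 2.38-fold and 1.82-fold. For both, every fem-2(b245ts) array lay above every fem-3(q20ts) array, as for 12.8% of all tested miRNAs. miR-44 had about the same mean signal in both, with a fold of 1.06. All 3 differences were positive, as were 42.6% of all tested ones, and none of the 3 passed the test over all miRNAs. In limma, which draws the variance of each oligo toward a value common to all oligos, 0 of 3 had an adjusted p under 0.05. This was so for 8.51% of all tested miRNAs. Outside miR-35 to miR-41, 0 of 87 tested miRNAs passed as higher in fem-2(b245ts) and 1 as lower. An unadjusted limma p under 0.05 was found for 1 of 3, miR-42, against 10.6% of all tested miRNAs. In whole animals, fewer cells that hold a miRNA and less of it per cell cannot be told apart.

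**Figure D1:**
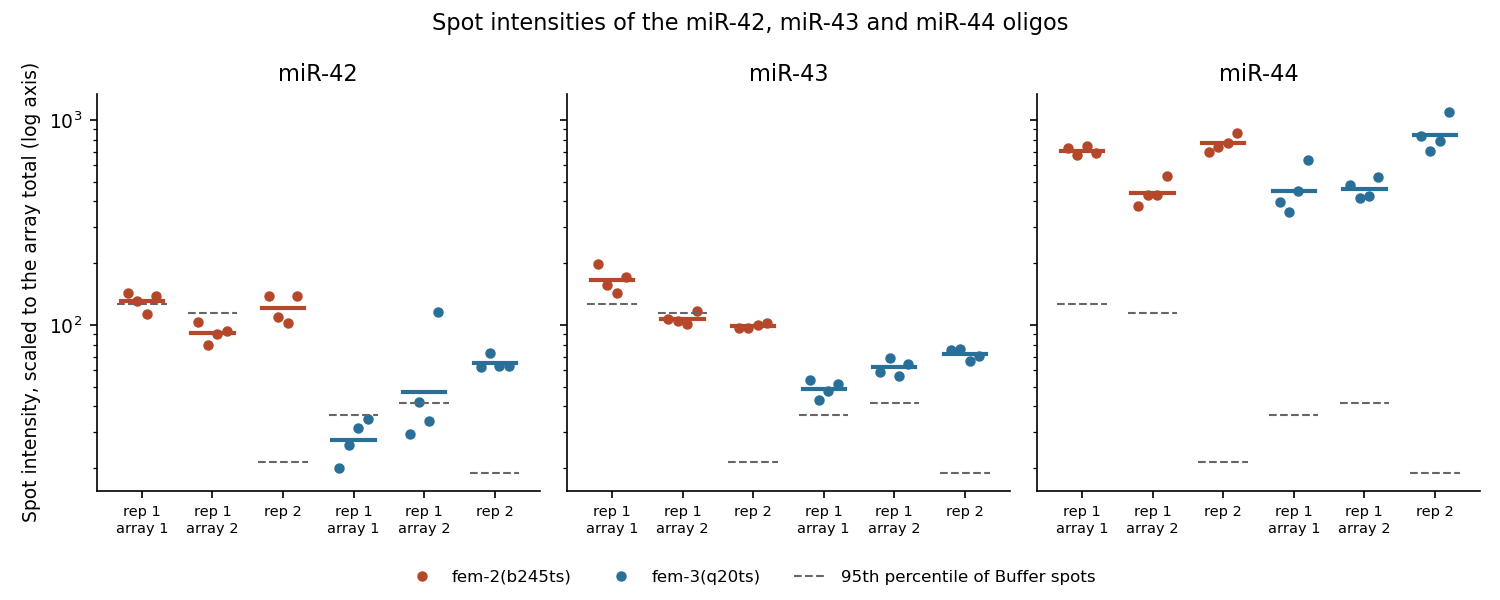
Intensity of each of the 4 spots of miR-42, miR-43 and miR-44 (points, log axis, scaled to the array total) on the 3 arrays of fem-2(b245ts) and the 3 of fem-3(q20ts), with the geometric mean (solid line) and the 95th percentile of the Buffer spots of that array (dashed line). miR-42 and miR-43 lie higher on every fem-2(b245ts) array by their means, miR-44 does not, and 1 spot of miR-42 on a fem-3(q20ts) array stands at 116.

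miR-42, the relative of the oocyte and embryo family, had mean intensities of 131 and 91.5 on the fem-2(b245ts) arrays of replicate 1 and 122 on that of replicate 2, against 28.0, 55.2 and 65.2 on the fem-3(q20ts) arrays in the same order. The lowest fem-2(b245ts) array lay above the highest fem-3(q20ts) array. It averaged 117 ± 7.82 in fem-2(b245ts), against 53.4 ± 16.7 in fem-3(q20ts) (SD, n = 2 samples of each genotype). The log2 difference, fem-2(b245ts) minus fem-3(q20ts), was 1.25 (SE 0.40, 95% interval 0.23 to 2.27), with an unadjusted limma p of 0.0250 and a limma adjusted p of 0.261. It was 1.60 between the samples of replicate 1 and 0.90 between those of replicate 2. The log2 values of the biological replicates were 0.15 apart in fem-2(b245ts) and 0.86 apart in fem-3(q20ts), beside medians of 0.48 and 0.42 over all tested miRNAs. As a share of all miRNA signal, miR-42 made up 0.169%, 0.120% and 0.132% on the fem-2(b245ts) arrays, against 0.0316%, 0.0621% and 0.0685% on the fem-3(q20ts) arrays. From the most positive difference downward it ranked 8th of the 94 tested miRNAs, directly after miR-35 to miR-41.

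In replicate 1 of both genotypes the miR-42 signal lay near the Buffer level. The oligo exceeded that level on 2 of 3 arrays of each genotype. On the second fem-3(q20ts) array of replicate 1 this rested on 1 spot with an intensity of 116. The lowest spot there was at 29.4, and without the highest the geometric mean was 34.7, under the Buffer level of 41.5. On the first fem-2(b245ts) array the mean of 131 was likewise just over the Buffer level of 127. Without the highest spot the geometric mean there was 126.89, also under that array's Buffer level of 126.91. On the second fem-2(b245ts) array of replicate 1, 0 of 4 spots exceeded the Buffer level. With the median over spots in place of the mean, the log2 difference of miR-42 was 1.37. When the Buffer level was taken from the 24 other Buffer spots, a choice made after the values were seen, miR-42 was above it on 3 of 3 fem-2(b245ts) arrays, against 2 of 3 fem-3(q20ts) arrays.

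The scanner files of replicate 1 give a signal-to-noise score for each spot, and by this score too miR-42 was weaker in fem-3(q20ts). The score exceeded 3 for 7 of 8 spots of miR-42 in fem-2(b245ts) and for 2 of 8 in fem-3(q20ts). Before any scaling, the spot means of miR-42 were 294 to 364 in fem-2(b245ts) and 240.4 to 352 in fem-3(q20ts). The local backgrounds were 209 to 239 and 204 to 228. The 352 belonged to the spot that stood at 116 after scaling, on the second fem-3(q20ts) array. On the first fem-3(q20ts) array the highest spot mean was 272.

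miR-43, of the miR-2 family, had mean intensities of 167 and 107 on the fem-2(b245ts) arrays of replicate 1 and 98.8 on that of replicate 2, against 49.0, 62.2 and 72.0 on the fem-3(q20ts) arrays in the same order. Here too the lowest fem-2(b245ts) array lay above the highest fem-3(q20ts) array. It averaged 118 ± 27.2 in fem-2(b245ts), against 63.8 ± 11.6 in fem-3(q20ts) (SD, n = 2). The log2 difference was 0.87 (SE 0.34, 95% interval -0.01 to 1.74), with an unadjusted limma p of 0.0511 and a limma adjusted p of 0.379. It was 1.28 in replicate 1 and 0.46 in replicate 2. Both replicates were positive for miR-42 and miR-43, as for 30.9% of all tested miRNAs. The log2 values of the biological replicates of miR-43 were 0.43 apart in fem-2(b245ts) and 0.39 apart in fem-3(q20ts). Its share of all miRNA signal was 0.215%, 0.141% and 0.106% on the fem-2(b245ts) arrays, against 0.0552%, 0.0699% and 0.0757% on the fem-3(q20ts) arrays.

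The spots of miR-43 agreed closely on each array. Their coefficient of variation was 2.97% to 14.5% in fem-2(b245ts) and 6.12% to 9.58% in fem-3(q20ts), whereas that of miR-42 was 9.90% to 15.6% in fem-2(b245ts) and 7.92% to 73.7% in fem-3(q20ts). miR-43 exceeded the Buffer level on 2 of the 3 arrays of fem-2(b245ts), against 3 of 3 fem-3(q20ts) arrays. The missing array was the second of fem-2(b245ts) replicate 1, where 107 stood against a Buffer level of 114. The signal-to-noise score of miR-43 exceeded 3 for 3 of 8 spots in fem-2(b245ts) and for 7 of 8 in fem-3(q20ts), the opposite order to its intensity.

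Of the 3, miR-44 alone exceeded the Buffer level on each of the 6 arrays, as 62.8% of all tested miRNAs did, and its genotypes were not separated. Its mean intensities were 709 and 442 on the fem-2(b245ts) arrays of replicate 1 and 769 on that of replicate 2, against 459.6, 462 and 856 on the fem-3(q20ts) arrays in the same order. The lowest and the highest of the 6 arrays were from different genotypes, and the groups overlapped. It averaged 672 ± 136 in fem-2(b245ts), against 659 ± 279.7 in fem-3(q20ts) (SD, n = 2). The log2 difference was 0.08 (SE 0.43, 95% interval -1.02 to 1.17), with a limma adjusted p of 0.909. It was 0.30 in replicate 1 and -0.14 in replicate 2.

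For miR-44 the gaps within a genotype were larger than the difference between genotypes, except that between the technical arrays of fem-3(q20ts). In fem-2(b245ts) its log2 values were 0.46 apart between the biological replicates and 0.69 apart between the technical arrays. In fem-3(q20ts) these gaps were 0.90 and 0.04. The signal-to-noise score of miR-44 was 2.58 to 5.48 on the first fem-2(b245ts) array and 31.7 to 49.5 on the second, against 23.5 to 70.4 on the fem-3(q20ts) arrays of replicate 1. On the first fem-2(b245ts) array the local backgrounds of the miR-44 spots were 233, 241, 374 and 249, beside a median of 232 over all spots. The spot with the lowest score there, 2.58, had a background of 241.

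Across all tested miRNAs, the 12 with every fem-2(b245ts) array above every fem-3(q20ts) array made up 12.8%, and miR-42 and miR-43 were 2 of them. By biological samples, 18.1% had both fem-2(b245ts) samples above both fem-3(q20ts) samples. With 2 samples against 2, an exact permutation test cannot give a two-sided p below 0.333, the value it gave for miR-42 and for miR-43, and it gave 1 for miR-44. The median log2 difference of the 3 was 0.87, beside -0.14 for all 94 tested miRNAs and -0.18 for the 87 outside miR-35 to miR-41. Outside miR-35 to miR-41, the largest positive differences were those of miR-42, miR-61 (1.03), miR-43, miR-271 (0.86) and miR-70 (0.70), the last pair being named after their values were seen, and none of these passed (limma adjusted p from 0.261 to 0.489). The 20 other tested miRNAs of set A had a median difference of -0.43, with 3 of 20 positive. Of these 20, 0 had a difference above that of miR-42 or of miR-43, and 3 had one above that of miR-44.

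**Figure D2:**
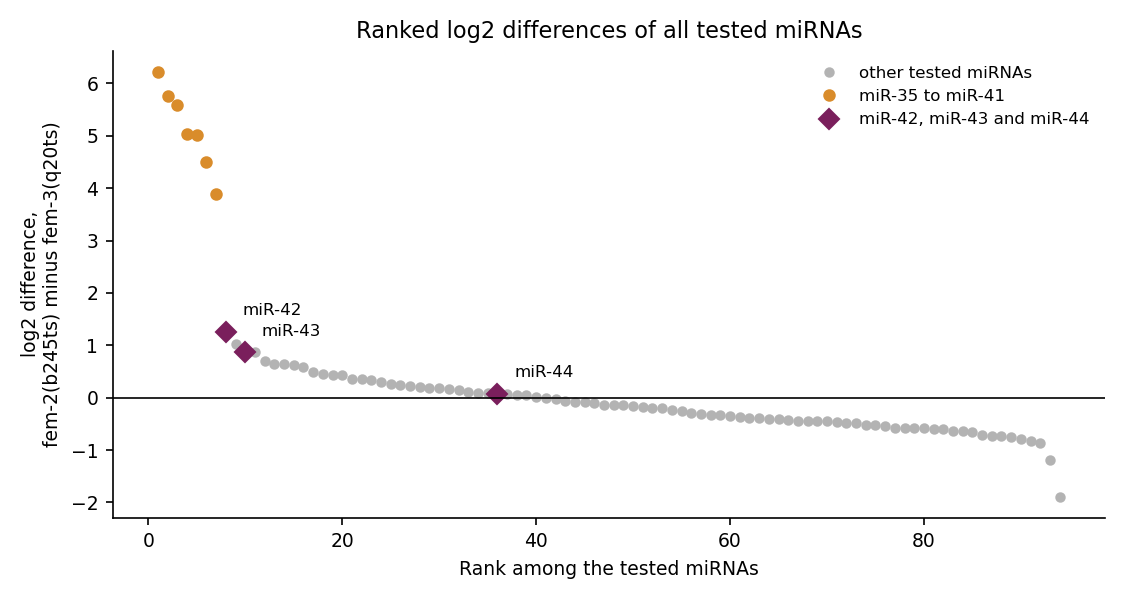
Log2 differences, fem-2(b245ts) minus fem-3(q20ts), of the 94 tested miRNAs from the most positive to the most negative (each point 1 miRNA). miR-42 at 1.25 and miR-43 at 0.87 follow miR-35 to miR-41, the lowest of which lies at 3.90, and miR-44 at 0.08 lies near 0. The plotted sizes of miR-37, miR-38, miR-40 and miR-41 are not exact, since these were not above the Buffer level on every fem-3(q20ts) array.

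Differences between 2 oligos within an array do not move when the array is multiplied by 1 factor, as long as neither lies at the floor, but they do move under quantile normalization. They were used to compare the 3 miRNAs with one another. All 3 were printed in the same set, so a factor common to that set cancels as well. A signal added to every spot does not cancel, since it moves a dim oligo more than a bright one. Relative to miR-44, miR-42 had higher values in fem-2(b245ts). The log2 signal of miR-42 minus that of miR-44 was -2.35 and -2.66 in the fem-2(b245ts) samples of replicates 1 and 2, against -3.66 and -3.70 in the fem-3(q20ts) samples. The difference of these differences was 1.17 (SE 0.15), 1.31 in replicate 1 and 1.04 in replicate 2, and the arrays of the genotypes did not overlap. The exact permutation p was 0.333, the smallest that 4 samples allow. The difference was 1.31 with the first and 1.03 with the second technical arrays of replicate 1, each beside replicate 2. With a pseudocount of 32 in place of the floor it was 0.77, and from the scanner signals of replicate 1 after normexp and quantile normalization it was 0.49, so that its size depends on the treatment of low signal.

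For miR-43 minus miR-44 the values were -2.06 and -2.96 in fem-2(b245ts) and -3.04 and -3.55 in fem-3(q20ts). Their difference was 0.79 (SE 0.51), 0.98 in replicate 1 and 0.60 in replicate 2. It was 0.34 when fem-2(b245ts) replicate 1 was left out, 1.23 when fem-2(b245ts) replicate 2 was, and 0.53 when fem-3(q20ts) replicate 2 was. With the first or the second technical arrays of replicate 1, each beside replicate 2, it was 0.85 or 0.73. The scanner signals of replicate 1 after normexp and quantile normalization gave 0.48. The samples did not overlap (exact permutation p = 0.333). By single arrays they did, since replicate 2 of fem-2(b245ts) at -2.96 lay below the second fem-3(q20ts) array of replicate 1 at -2.89.

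miR-42 and miR-43 did not separate from each other. The log2 signal of miR-42 minus that of miR-43 was -0.29 and 0.30 in fem-2(b245ts), against -0.62 and -0.15 in fem-3(q20ts). These samples overlapped, and the difference of 0.38 (SE 0.38) had an exact permutation p of 0.667. This difference was 0.46 with the first and 0.31 with the second technical arrays of replicate 1, each beside replicate 2.

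**Figure D3:**
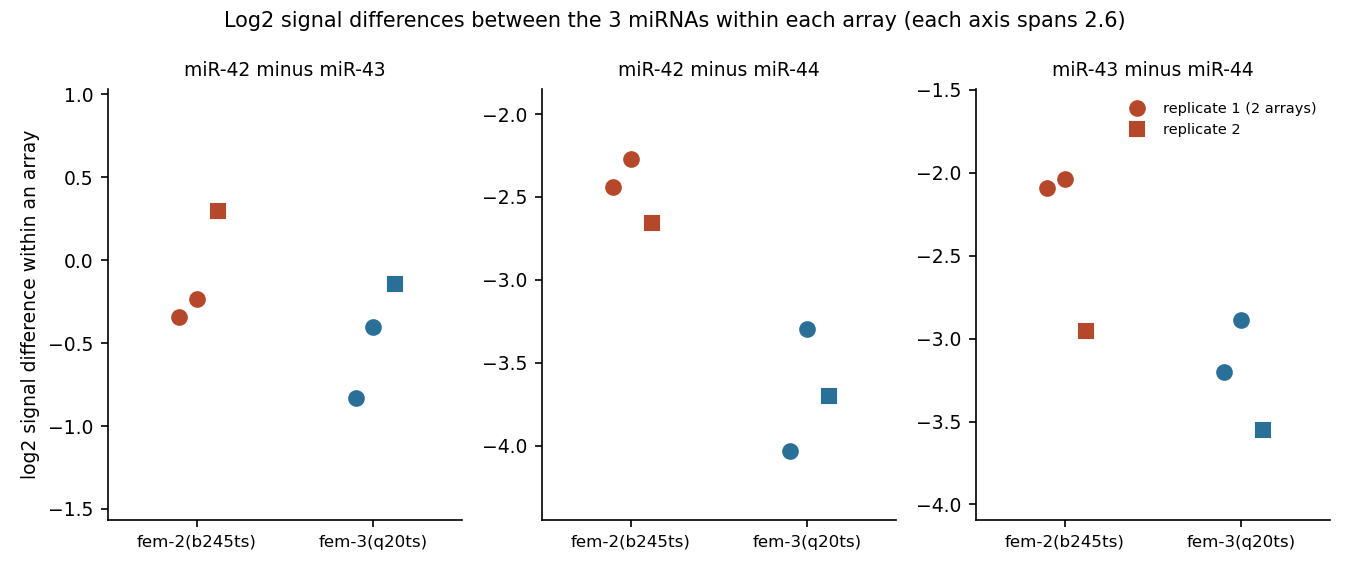
Log2 signal differences between pairs of the 3 miRNAs within each array, fem-2(b245ts) on the left and fem-3(q20ts) on the right, with circles for the 2 arrays of replicate 1 and squares for replicate 2. Only miR-42 minus miR-44 keeps the genotypes apart on all arrays, with -2.66 or more in fem-2(b245ts) and -3.29 or less in fem-3(q20ts), and the levels themselves are not comparable because the oligos differ.

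Among the other 93 tested miRNAs, the one whose log2 signal was most like that of miR-42 over the 6 arrays was its neighbour miR-43 (Pearson r = 0.93), and the same held in the other direction. Next for miR-42 came miR-40 (r = 0.91) and miR-36 (r = 0.90), and for miR-43 miR-76 (r = 0.89) and miR-36 (r = 0.88). For miR-44 they were miR-45 (r = 0.99), miR-231 (r = 0.98) and miR-251 (r = 0.95). miR-44 ranked 19th among the partners of miR-42 (r = 0.56) and 26th among those of miR-43 (r = 0.40). These correlations describe 6 arrays of 4 samples that share their scaling, and oligos of set A also share their place on the array.

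The difference of miR-42 was far smaller than those of its seed relatives. All 8 members were on the array and tested, and 7 of 8 were higher in fem-2(b245ts) in limma, beside 7.45% of all tested miRNAs. These 7 were miR-35 to miR-41, and they make up all of that 7.45%. Of the 87 tested miRNAs outside them, 0 passed as higher and 1 as lower. Of them, miR-35, miR-36 and miR-39 exceeded the Buffer level on all arrays, with log2 differences of 3.90, 4.50 and 5.03 (limma adjusted p of 0.00194, 0.000905 and 0.000761). On the fem-3(q20ts) arrays that level was exceeded by miR-38 on 2 of 3, by miR-37 and miR-40 on 1 of 3, and by miR-41 on 0 of 3. The fitted differences of miR-37 (6.22) and miR-40 (5.77) therefore rest partly on signal at the floor and are not exact sizes. For miR-41 there is only a bound, at least 22.4-fold higher in fem-2(b245ts), set on each fem-3(q20ts) array against the dimmest miRNA that exceeded the Buffer level. The log2 signal of miR-42 minus the mean of miR-35, miR-36 and miR-39, relatives chosen after their detection was seen, was -3.99 and -4.10 in fem-2(b245ts), against -1.09 and -0.55 in fem-3(q20ts). The difference was -3.22 (SE 0.27), -2.90 in replicate 1 and -3.54 in replicate 2, with an exact permutation p of 0.333. Over all 7 relatives it was -3.89, a size that moves with the floor and the pseudocount because several relatives were not above the Buffer level. miR-42 itself exceeded that level on 2 of 3 fem-3(q20ts) arrays. The oligos of the 7 were printed in set C and not in set A. With the first or the second technical arrays of replicate 1, each beside replicate 2, the difference over all 7 was -3.52 or -4.26. The signal of these related sequences differed in the same direction as that of miR-42, and its part in the miR-42 signal was not tested.

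The difference of miR-43 was positive and those of both its measured seed relatives were negative. In the miR-2 family 3 of 4 listed members had an oligo, and 0 of 3 passed in either direction, beside 8.51% of all tested miRNAs. At an unadjusted p under 0.05 there were also 0, beside 10.6%, so that counts this small say little about the family. miR-2 had 901 ± 93.3 in fem-2(b245ts), against 1176 ± 48.5 in fem-3(q20ts) (SD, n = 2), a log2 difference of -0.39 (SE 0.29). miR-250 had 246 ± 11.2 in fem-2(b245ts), against 306 ± 21.4 in fem-3(q20ts) (SD, n = 2), a log2 difference of -0.33 (SE 0.29). Both stayed negative under all 6 other scalings, miR-250 coming nearest to 0 at -0.0048 when the miR-35 family was left out of the total, whereas miR-43 stayed positive, from 0.31 to 1.23.

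The log2 signal of miR-43 minus the mean of miR-2 and miR-250 was -1.82 and -2.21 in fem-2(b245ts), against -3.38 and -3.11 in fem-3(q20ts). The samples did not overlap, and the difference was 1.23 (SE 0.24), 1.56 in replicate 1 and 0.90 in replicate 2, with an exact permutation p of 0.333. miR-2 was printed in set C and miR-250 in set B, so this comparison spans places on the array. With each set centred on its own median, an alternative chosen after the values were seen, the difference was 1.37. With the first or the second technical arrays of replicate 1, each beside replicate 2, it was 1.41 or 1.04.

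In the miR-44 family all 4 listed members were tested and 0 passed in limma, beside 8.51% of all tested miRNAs, and 0 had an unadjusted p under 0.05, beside 10.6%. miR-45, whose oligo detects the same mature sequence, followed miR-44 closely. Its mean intensities were 717 and 478 on the fem-2(b245ts) arrays of replicate 1 and 752 on that of replicate 2, against 435, 487 and 785 on the fem-3(q20ts) arrays in the same order. Its log2 difference was 0.14 (SE 0.39), and on no array did the log2 signals of the miR-44 and miR-45 oligos differ by more than 0.12.

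The other relatives of miR-44 spread to both sides. miR-61 was at 255 ± 124 in fem-2(b245ts), against 119.5 ± 5.16 in fem-3(q20ts) (SD, n = 2), with a log2 difference of 1.03 (SE 0.44; 0.49 in replicate 1 and 1.57 in replicate 2). miR-247 was at 49.6 ± 12.4 in fem-2(b245ts), against 98.6 ± 68.3 in fem-3(q20ts) (SD, n = 2), with a log2 difference of -0.83 (SE 0.60). It exceeded the Buffer level on 1 of the 3 arrays of fem-2(b245ts), against 3 of 3 fem-3(q20ts) arrays. The log2 signal of miR-44 minus the mean of miR-45, miR-61 and miR-247 differed by -0.04 (SE 0.59) between the genotypes, with 0.46 in replicate 1 and -0.54 in replicate 2 and an exact permutation p of 1. With the first or the second technical arrays of replicate 1, each beside replicate 2, it was 0.14 or -0.21. The mean of the relatives includes miR-45, which has the same mature sequence, and miR-61 and miR-247 with opposite signs. A value near 0 therefore says little about miR-44 against its family.

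The seeds of miR-43 and miR-44 also occur together in another pair of neighbours, since mir-250 and mir-61 were adjacent miRNA genes on chromosome V in the same table. There the carrier of the miR-44 seed, miR-61, had the positive log2 difference (1.03) and the carrier of the miR-2 seed, miR-250, the negative one (-0.33). On chromosome II the carrier of the miR-2 seed, miR-43, had the larger one (0.87) and the carrier of the miR-44 seed, miR-44, was at 0.08. None of these 4 differences passed in limma, with adjusted p-values from 0.379 to 0.909. The miR-44 oligo is also expected to bind miR-45, so the value of 0.08 cannot be assigned to the mir-44 gene alone.

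**Figure D4:**
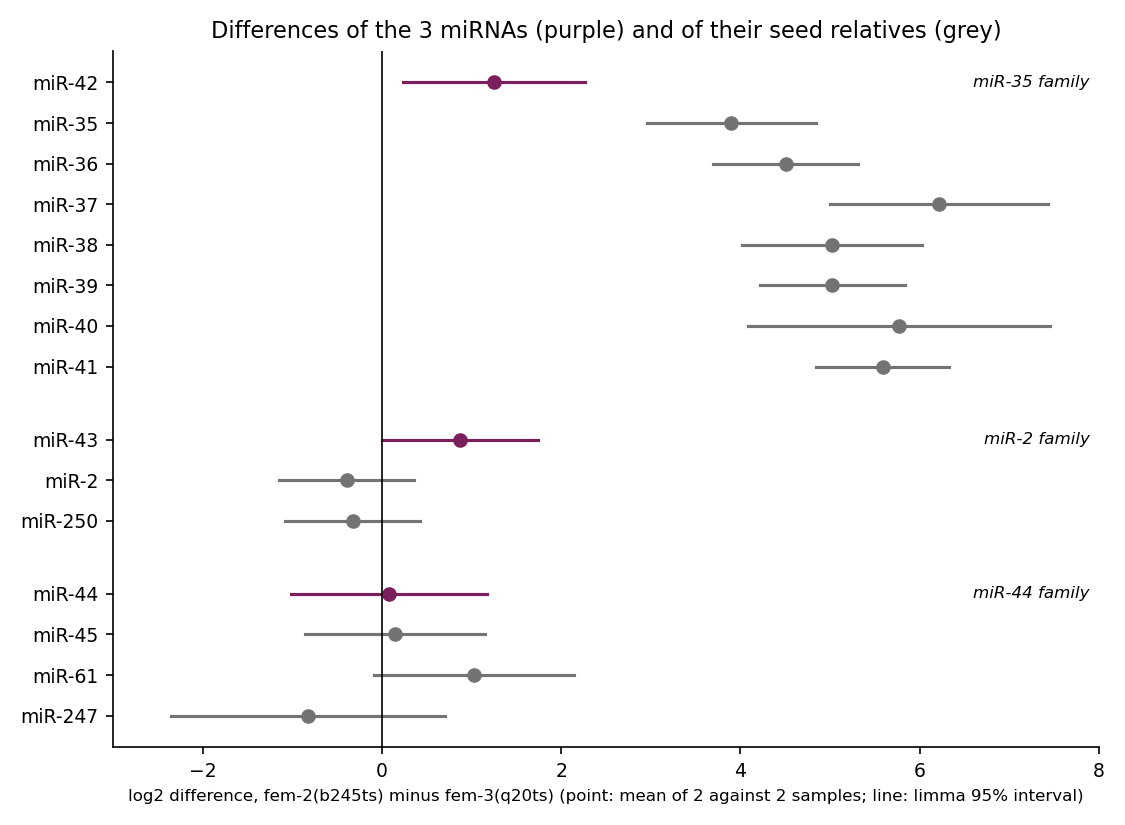
Log2 differences, fem-2(b245ts) minus fem-3(q20ts), with limma 95% intervals for miR-42, miR-43 and miR-44 (purple) and for the oligos that share their seeds (grey), from 2 against 2 biological samples. The sizes of miR-37, miR-38, miR-40 and miR-41 are not exact for want of signal above the Buffer level in fem-3(q20ts). miR-42 lies below the other members of the miR-35 family, miR-43 lies above miR-2 and miR-250, and miR-44 lies with miR-45.

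The 7 oocyte miRNAs miR-35 to miR-41 all passed as higher in fem-2(b245ts), and their differences stayed positive under all 6 other scalings. They were listed with earlier results of these data known, so they are not an independent check of the labels. Of 7 listed markers of tissues outside the germ line, 6 had an oligo, and each of these exceeded the Buffer level on every array. Of these 6, 0 passed in limma and 0 had an unadjusted p under 0.05, beside 8.51% and 10.6% of all tested miRNAs, from which counts of 0 do not stand apart. Their log2 differences ran from -0.75 for the intestinal miR-60 to 0.22 for miR-84, with a median of -0.38. Their part in the differences of miR-42 and miR-43 was not tested.

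The limma test of miR-42 depended on how the arrays were brought to 1 scale. On the spike control the log2 difference was 0.69 (limma adjusted p = 0.486). With each printed set centred on its own median, chosen after the values were seen, it was 1.61 and passed (limma adjusted p = 0.0327). With only the first technical arrays of replicate 1, beside replicate 2, the differences were 1.57 for miR-42, 1.11 for miR-43 and 0.26 for miR-44. With only the second, again beside replicate 2, they were 0.93, 0.62 and -0.10. The sign of the miR-44 difference turned with the scaling, from -0.48 on the spike control to 0.44 with each printed set centred.

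**Figure D5:**
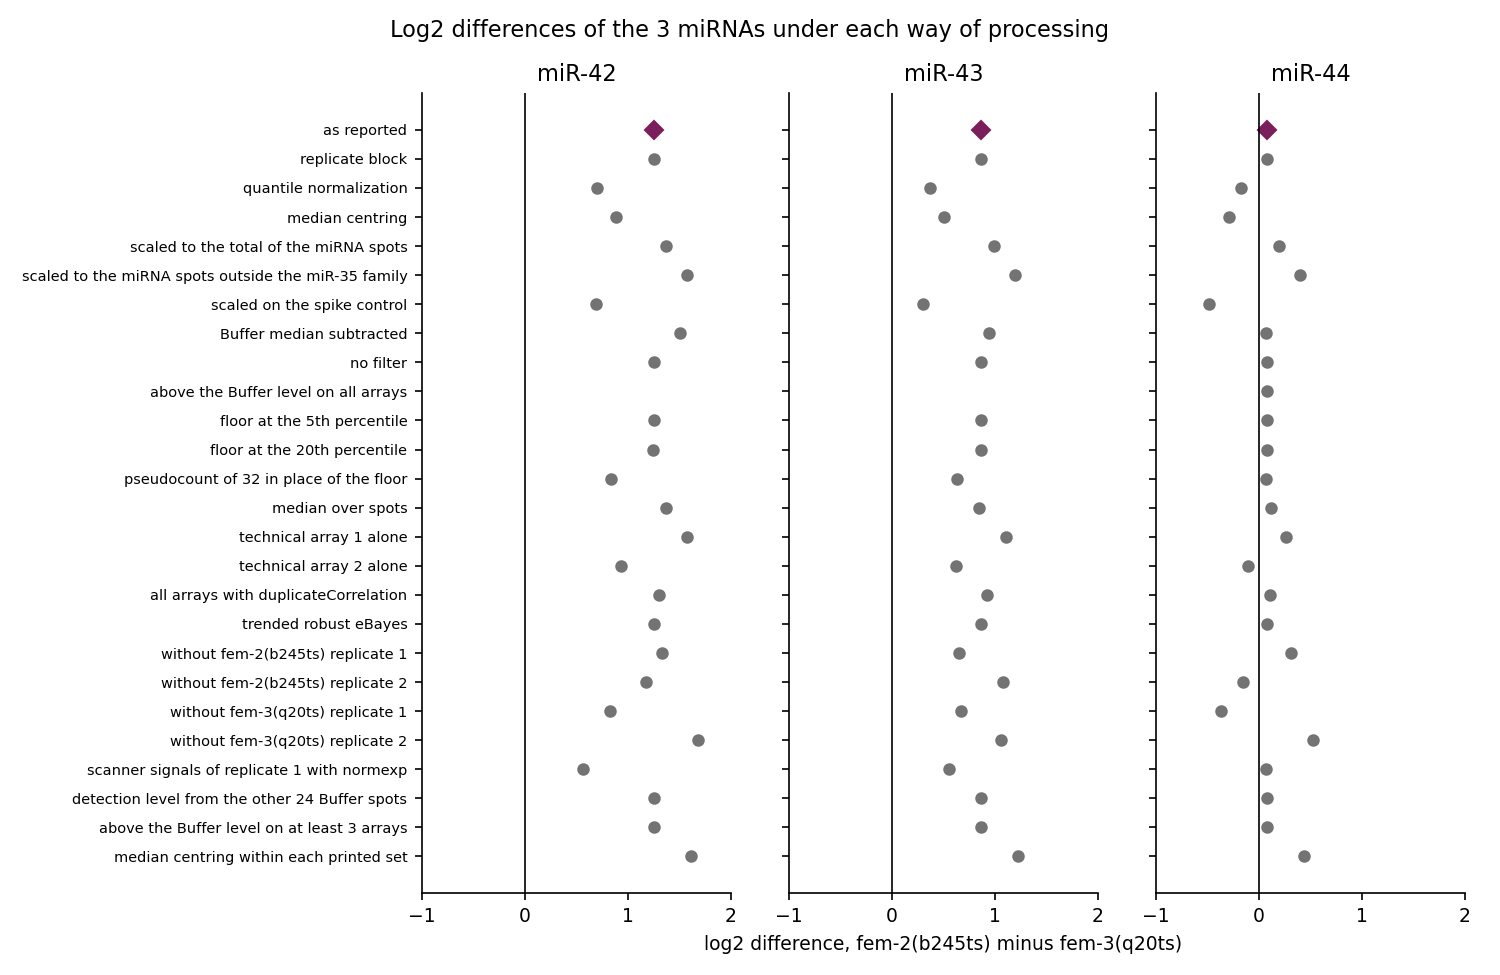
Log2 differences, fem-2(b245ts) minus fem-3(q20ts), of miR-42, miR-43 and miR-44 as reported (diamond) and under each other way of processing (points). miR-42 stayed between 0.56 and 1.68 and miR-43 between 0.31 and 1.23, whereas miR-44 lay on both sides of 0, from -0.48 to 0.53.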

How the data were processed

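Per the labels' protocols, gel-isolated short RNAs of whole adults were labelled by ligation of a Cy3 oligonucleotide, for spotted arrays of 1 colour. The deposited value table holds spot intensity, which the authors divided by array totals per the series' design text, and all 6 columns summed to 395309. Scanner files were used for the 4 arrays of replicate 1, where the normalized intensity equalled mean minus median background. In those files the signal-to-noise score and the percent of saturated pixels stand as deposited, per the file headers (0 saturated spots among the 3 oligos). Not given in the sources used here are the scanner and the sequences of the oligos. Names came from the scanner files by spot number, also for replicate 2.

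A floor of 12.8, the 10th percentile of all values above 0, was set before log2 was taken, and values were averaged over 4 spots and then over technical arrays. Differences were coded fem-2(b245ts) minus fem-3(q20ts) and tested over 94 oligos in limma 3.58.1 (lmFit, eBayes; two-sided; R 4.3.3), with Benjamini-Hochberg adjustment at 0.05 (2 residual and 3.05 prior degrees of freedom). Within-array differences were tested with an exact permutation test that reassigns the 4 samples freely. If the replicate numbers pair the samples, only swaps within pairs apply, and the smallest two-sided p is 0.5, so these p-values support no call. The fit was checked on simulated data with differences larger than those of the 3 miRNAs. That check does not cover differences of their size. The number of arrays limits the precision, and nothing states that the replicates came from separate cultures beyond calling them biological.

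The named miRNAs are the 3 neighbours, their seed relatives with an oligo and, for each, the 3 tested miRNAs of highest Pearson r over the arrays, with listed tissue markers. Members, lists and tests were chosen with earlier results of these data known. Samples of 1 replicate number share a token in their descriptions and were taken as pairs for the replicate block, while the main fit is unpaired. The replicate 1 minus replicate 2 differences correlated between genotypes (r = 0.711 over 94 oligos). Alternatives covered the replicate block, scalings, background, filters, floors, spot averaging, technical arrays, variance models and each sample left out. Of 108 names, 100 matched a RefSeq miRNA gene of WBcel235, used for order only.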

Additional observations from a re-analysis of the deposited data

How the results depend on the processing

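Over all alternatives, the differences of miR-42 (0.56 to 1.68) and miR-43 (0.31 to 1.23) kept their sign, and with a test miR-42 passed in 1 of 23 and miR-43 in 0 of 23. miR-42 passed with median centring within each printed set (1.61, limma adjusted p = 0.0327), chosen after the data were seen, and its adjusted p otherwise ran from 0.0520 to 0.934. With the replicate block the limma adjusted p-values were 0.108 for miR-42, 0.162 for miR-43 and 0.802 for miR-44, with differences of 1.25, 0.87 and 0.08, and 9 miRNAs were called against 8, so that the block changed no call of the 3. The miR-44 difference turned negative after median centring (-0.29), on the spike control (-0.48) and after quantile normalization (-0.18). It also did with only technical array 2 of replicate 1 beside replicate 2 (-0.10). Leaving out 1 sample gave -0.37 (without fem-3(q20ts) replicate 1) to 0.53 (without fem-3(q20ts) replicate 2) for miR-44, with -0.15 without fem-2(b245ts) replicate 2, 0.82 to 1.68 for miR-42 and 0.65 to 1.08 for miR-43. The count of called miRNAs, 8 as reported, was 7 when any 1 sample was left out. Requiring the Buffer level on all arrays left 59 miRNAs, with 4 called, and removed miR-42 and miR-43.

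Of the within-array comparisons, miR-42 minus miR-44 was 0.88 after quantile normalization, 1.43 with the Buffer median subtracted, 0.77 with a pseudocount of 32 and 0.49 from scanner signals of replicate 1 with normexp and quantile normalization, which give no test. miR-42 minus miR-35 to miR-41 was -4.12, -4.07, -3.43 and -3.30 under the same 4. With technical array 1 or 2 of replicate 1, each beside replicate 2, it was -3.52 or -4.26. Over the 3 relatives above the Buffer level on all arrays, added after the data were seen, it was -3.22. miR-43 minus the other miR-2 family members was 0.97 with the pseudocount, and miR-42 minus miR-43 was 0.0036 with normexp. Leaving out 1 sample gave 1.02 to 1.33 for miR-42 minus miR-44, 0.34 to 1.23 for miR-43 minus miR-44, 0.09 to 0.68 for miR-42 minus miR-43, -4.01 to -3.77 for miR-42 minus miR-35 to miR-41, 1.03 to 1.42 for miR-43 minus its relatives and -0.62 to 0.55 for miR-44 minus its relatives. The causes were not tested. The median over all tested miRNAs, -0.14 as reported, lay between -0.70 and 0.19 under the other scalings. Signal near the Buffer level limits miR-42 in replicate 1 of both genotypes, and miR-43 on the second fem-2(b245ts) array of that replicate.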
